A study of Mus musculus with 6 samples.

Results

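Solute carriers are the membrane proteins that move sugars, amino acids, ions, metals, vitamins, nucleotides and lipids into and out of cells and organelles. The genes described here are the protein-coding rows of the expression table with an Slc family symbol and a mean of at least 1 FPKM over all 6 libraries, where FPKM counts fragments relative to the length of the transcript and the size of the library. The members were thus chosen by their measured mean level, and the 6 genes Slc2a1, Slc16a1, Slc16a3, Slc7a11, Slc3a2 and Slc7a5 were left out by name. Of 176 protein-coding Slc rows, 19 fell below the level, so 151 of the 13823 listed genes were members. Just inside the level stood Slc22a21 at 1.09, Slc25a22 at 1.08 and Slc4a11 at 1.04 FPKM, and just outside stood Slc27a3 and Slc7a2, each at 0.997, and Slc25a15 at 0.989 FPKM.

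RNA sequencing was done on tissue labelled breast from 6 Balb/c mice. A control group of 3 mice received the vehicle, dimethyl sulfoxide (DMSO), and 3 mice received isotoosendanin (ITSN), a plant limonoid, by stomach tube at 1 mg/kg per day. The title of the series ties ITSN to TGF-β receptor 1 and triple-negative breast cancer, while the sample labels name no tumour, cell line, age or length of treatment. All 6 mice are labelled male, but Xist, made from the inactive X chromosome of females, stood at 20.1 to 29.3 FPKM in every library. The question addressed here is which solute carriers differed between ITSN and vehicle tissue.

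The libraries did not all resemble each other. Mitochondrially encoded transcripts made up 32.3%, 22.4% and 17.5% of all FPKM in the vehicle libraries 1, 2 and 3, against 14.3%, 15.6% and 13.5% in the ITSN libraries. Vehicle 1 stood apart, and the groups did not overlap. Because FPKM is a share of a library, a larger mitochondrial share lowers the values of other genes, and with FPKM alone the sequencing depth is unknown. Of the markers of luminal epithelium, 9 of 11 were listed, and their summed level was 358 to 527 FPKM under vehicle and 531 to 560 FPKM under ITSN, without overlap. Krt8 and Krt18, by far the highest of the 9, each overlapped. Krt8 was 228 FPKM in vehicle 3 and 224 in ITSN 1, and Krt18 was 280 in vehicle 3 and 269 in ITSN 2. The median log2 change of the 9, ITSN minus vehicle, was 0.28, with 8 above 0. It was -0.02 once a trend with GC content, described below, was taken out. Only 1 of 5 myoepithelial markers (Krt14) and 1 of 5 milk protein genes (Csn3) were listed, while all 10 macrophage markers were, with sums of 211 to 633 FPKM under vehicle and 558 to 596 FPKM under ITSN. Fibroblast markers summed to 45.6 to 180 and 119 to 190 FPKM, neutrophil markers to 77.7 to 229 and 72.5 to 120 FPKM, and skeletal muscle markers to 2.66 to 9.79 and 5.45 to 86.3 FPKM, with vehicle first. The part of cell composition and of the mitochondrial share in the results below was not tested, and in bulk tissue fewer cells of a type cannot be told apart from less RNA per cell.

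As background, the family numbers of solute carriers follow sequence, and each family tends to share a kind of cargo. Slc25 proteins sit mostly in the inner mitochondrial membrane and exchange metabolites with the cytosol. Slc35 proteins feed the Golgi and endoplasmic reticulum with nucleotide sugars and sulfate donors. Slc39 (ZIP) proteins bring zinc into the cytosol, and Slc30 (ZnT) proteins take it out or into vesicles. Many plasma membrane carriers are driven by the sodium gradient that the sodium pump sets up. In mammary tissue such carriers supply amino acids, zinc, ions and sugars to secretory epithelium, and dividing cells of many kinds draw on the same set.

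The members came from 38 families of carriers, with 33 mitochondrial carriers, 23 carriers of metals and heme, 19 of inorganic ions, 19 of the Slc35 family, 18 of amino acids and neurotransmitters, 8 of sugars and monocarboxylates and 27 of other families. A further 4 rows, Slc4a1ap, Slc9a3r1, Slc9a3r2 and Slc7a6os, carry an Slc symbol but encode no carrier. The median member had a mean of 4.02 FPKM, against 4.92 FPKM for all listed genes. Levels were uneven, with 12 members at 20 FPKM or more and 33 under 2 FPKM, and the 5 highest members held 23.4% of all solute carrier FPKM. Mitochondrial carriers held 33.4% of it, metal carriers 17.4% and amino acid carriers 15.1%.

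Mitochondrial carriers led the list. Slc25a24, the calcium-regulated exchanger of ATP-magnesium for phosphate, measured 53.9, 69.8 and 75.2 FPKM in vehicle 1, 2 and 3 and 65.8, 67.8 and 63.4 FPKM in ITSN 1, 2 and 3. Slc25a4, the ADP/ATP exchanger most abundant in heart and muscle, measured 58.1, 65.7 and 71.1 FPKM in vehicle 1, 2 and 3 and 66.1, 69.8 and 64.1 FPKM in ITSN 1, 2 and 3. Its relative Slc25a5, common in dividing cells, measured 24.3, 49.1 and 59.7 FPKM in vehicle 1, 2 and 3 and 47.1, 46.6 and 49.2 FPKM in ITSN 1, 2 and 3. Vehicle 1 was the lowest library for all 3 genes, and the groups overlapped. Slc25a3, which brings phosphate into mitochondria for ATP synthesis, measured 27.6, 30.5 and 31.96 FPKM in vehicle 1, 2 and 3 and 36.1, 34.5 and 38.96 FPKM in ITSN 1, 2 and 3. All 3 ITSN values of Slc25a3 lay above all 3 vehicle values, with a difference of 0.27 log2 units (SE 0.10, adjusted p = 0.174 in limma). On the same scale the changes of Slc25a24, Slc25a4 and Slc25a5 were 0.00 (SE 0.14), 0.04 (SE 0.10) and 0.19 (SE 0.31).

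Outside mitochondria the most abundant member was Slc38a2, a sodium-coupled importer of glutamine, alanine and other small neutral amino acids, at 52.0, 57.6 and 60.6 FPKM in vehicle 1, 2 and 3 and 72.04, 71.6 and 72.1 FPKM in ITSN 1, 2 and 3. The ITSN values were within 0.5 FPKM of each other and above every vehicle value. Zinc carriers came next, with the importer Slc39a10 at 20.7, 28.1 and 31.5 FPKM in vehicle 1, 2 and 3 and 30.7, 27.6 and 31.7 FPKM in ITSN 1, 2 and 3. Slc30a4, which loads zinc into secretory vesicles and milk, measured 22.1, 24.98 and 27.1 FPKM in vehicle 1, 2 and 3 and 29.5, 30.5 and 28.5 FPKM in ITSN 1, 2 and 3. The groups overlapped for Slc39a10 and did not for Slc30a4, whose lowest ITSN value was 28.5 FPKM. The sodium-dependent myo-inositol importer Slc5a3 stood at 26.9, 22.0 and 19.2 FPKM under vehicle and 24.997, 22.1 and 26.7 FPKM under ITSN. Slc12a2, which brings in sodium, potassium and chloride together, stood at 16.8, 24.2 and 28.4 FPKM under vehicle and 23.6, 25.4 and 22.0 FPKM under ITSN. Both sets overlapped, and vehicle 1 was the highest library for Slc5a3 and the lowest for Slc12a2. The exons of Slc5a3 overlap those of Mrps6 on the same strand, so reads of these 2 genes may have been split between them in counting.

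**Figure D1:**
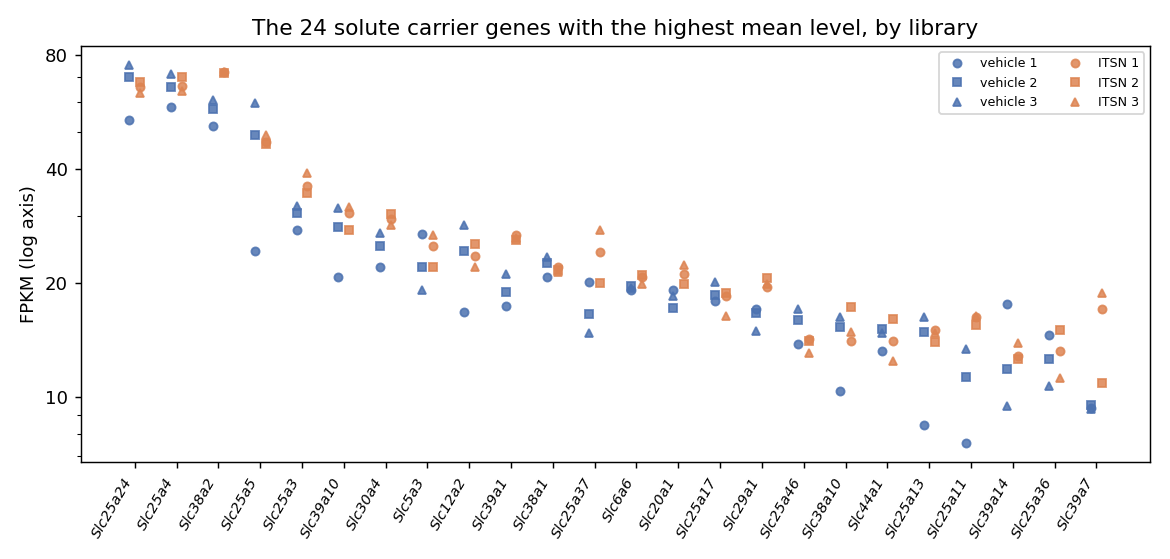
FPKM on a log axis of the 24 solute carrier genes with the highest mean level, 1 point per library, with vehicle in blue, ITSN in orange and a symbol for each replicate number. Slc25a24, Slc25a4 and Slc38a2 lie above 50 FPKM in all 6 libraries, and vehicle 1 (blue circle) is the lowest point for most of the genes shown.

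Members varied over the 6 libraries by a median of 1.65-fold between the highest and lowest library, and 48 of 151 varied at least 2-fold. Vehicle 1 was the lowest library for 99 members (65.6%), against 52.1% of all tested genes, and the highest for 11. The widest ranges belonged to Slc35a4, Slc35f6, Slc25a51, Slc1a4 and Slc8a1. Slc25a51, which takes NAD into mitochondria, measured 1.83, 2.59 and 7.62 FPKM in vehicle 1, 2 and 3 and 7.32, 7.77 and 5.61 FPKM in ITSN 1, 2 and 3. Vehicle 3 lay among the ITSN libraries while vehicle 1 and 2 lay well below. Slc8a1, a plasma membrane exchanger of sodium for calcium, measured 2.31, 6.52 and 8.12 FPKM under vehicle and 5.10, 4.07 and 5.20 FPKM under ITSN, with vehicle 1 at the bottom and vehicle 3 at the top of the range. The neutral amino acid exchanger Slc1a4 stood at 2.14, 5.80 and 5.93 FPKM under vehicle and 7.67, 8.95 and 6.12 FPKM under ITSN, so the groups did not overlap but vehicle 1 lay far below the rest.

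Taken as one sum, the members made up 0.427%, 0.502% and 0.543% of all FPKM in the vehicle libraries 1, 2 and 3, against 0.615%, 0.605% and 0.610% in the ITSN libraries. As a share of FPKM without the mitochondrially encoded genes the values were 0.632%, 0.647% and 0.658% under vehicle and 0.718%, 0.717% and 0.705% under ITSN. On both bases every ITSN library lay above every vehicle library, and the gap was narrower on the second.

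No member passed the test between ITSN and vehicle. The test was limma on log2(FPKM + 1) over the 12257 genes that reached 1 FPKM in 3 or more libraries, which included all 151 members, and it called 7 genes at a Benjamini-Hochberg adjusted p under 0.05 (0.0571%), with 0 members among them. The smallest adjusted p of a member was 0.0681. At an unadjusted p under 0.05, 50 members (33.1%) were higher in ITSN, where 16.3% of all tested genes were, and 0 were lower, where 4.57% of all tested genes were. The 50 had log2 changes from 0.20 to 0.90. These counts describe the list and carry no test of their own, because the members were chosen with results of these libraries known. Slc4a11 and Slc35f6 are among the 50 and in the counts that follow. Their means were 0.72 FPKM each under vehicle and 1.35 and 1.68 FPKM under ITSN. They thus reached the 1 FPKM level only through ITSN, and the rule favoured their direction.

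The same lean showed in other counts. The log2 change was above 0 for 129 of 151 members (85.4%), against 64% of all tested genes. In 58 members (38.4%) all ITSN values lay above all vehicle values, against 21.8% of tested genes, and in 1 member (0.662%) all lay below, against 7.37%. The median change of the members was 0.20 log2 units, against 0.09 for all tested genes. The ratio of the mean level under ITSN to that under vehicle ran from 0.814 to 2.33 over the members. Trimmed-mean scaling gave 46 members (30.5%) higher without overlap, against 15.7% of tested genes, and 6 (3.97%) lower, against 15.2%. It left 112 of 151 changes (74.2%) above 0, against 49% of tested genes, with a median of 0.12 against -0.01. Quantile normalization gave 37 members (24.5%) higher without overlap, against 14.5%, and 9 (5.96%) lower, against 14.9%, and it moved the median of all tested genes by -0.10. Relative to the median of all genes, the members' median was 0.12 higher as deposited, 0.13 higher with trimmed-mean scaling and 0.11 higher with quantile normalization.

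The 12 members with the smallest p, named by rule, were all higher in ITSN and came from several classes, and 11 of them are described here. Their adjusted p-values lay between 0.0681 and 0.0962. Slc35e4, an orphan member of the nucleotide sugar transporter family with no settled cargo, measured 2.56, 3.00 and 3.58 FPKM in vehicle 1, 2 and 3 and 6.15, 7.41 and 6.06 FPKM in ITSN 1, 2 and 3. The mean was 3.05 ± 0.52 FPKM under vehicle and 6.54 ± 0.75 FPKM under ITSN (SD, n = 3), with a difference of 0.90 log2 units (SE 0.13, adjusted p = 0.0681 in limma). Every ITSN value was well above the highest vehicle value. Slc9a8, an exchanger of sodium for protons in Golgi and endosomes, measured 2.33, 2.71 and 2.60 FPKM in vehicle 1, 2 and 3 and 4.57, 4.23 and 4.32 FPKM in ITSN 1, 2 and 3. The means were 2.55 ± 0.20 and 4.37 ± 0.18 FPKM (SD, n = 3), with a difference of 0.60 log2 units (SE 0.09, adjusted p = 0.0681 in limma). The gap between the groups was several times the spread within either.

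Slc35c2, a Golgi protein linked to fucosylation, measured 1.35, 1.79 and 1.69 FPKM in vehicle 1, 2 and 3 and 2.99, 2.95 and 3.05 FPKM in ITSN 1, 2 and 3, with a difference of 0.62 log2 units (SE 0.10, adjusted p = 0.0721 in limma). Slc35b2, which supplies the Golgi with the sulfate donor PAPS, measured 2.45, 3.55 and 3.73 FPKM in vehicle 1, 2 and 3 and 5.22, 5.61 and 5.34 FPKM in ITSN 1, 2 and 3, with a difference of 0.60 log2 units (SE 0.14, adjusted p = 0.0962 in limma). In Slc35b2 vehicle 1 lay below the other vehicle libraries, while in Slc35c2 all 3 vehicle values were under 2 FPKM.

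Among carriers of ions and protons, Slc4a2, which exchanges chloride for bicarbonate, measured 3.58, 3.61 and 3.62 FPKM in vehicle 1, 2 and 3 and 5.14, 5.37 and 5.78 FPKM in ITSN 1, 2 and 3. It was flat across the vehicle libraries, with an SD of 0.02 FPKM (n = 3), and higher in each ITSN library. Slc8b1, which lets calcium out of mitochondria in exchange for sodium, measured 2.96, 2.50 and 2.72 FPKM in vehicle 1, 2 and 3 and 4.59, 4.25 and 4.91 FPKM in ITSN 1, 2 and 3. Slc12a4, a cotransporter that lets potassium and chloride out of cells, measured 7.54, 8.48 and 8.80 FPKM in vehicle 1, 2 and 3 and 11.6, 11.2 and 13.1 FPKM in ITSN 1, 2 and 3. None of these sets overlapped. The log2 changes of Slc4a2, Slc8b1 and Slc12a4 were 0.48, 0.58 and 0.49, with limma adjusted p-values of 0.0755, 0.0754 and 0.0843.

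Slc27a1, which takes up long-chain fatty acids, measured 4.87, 5.44 and 6.14 FPKM in vehicle 1, 2 and 3 and 10.3, 8.03 and 11.9 FPKM in ITSN 1, 2 and 3, with a difference of 0.76 log2 units (SE 0.15, adjusted p = 0.0795 in limma). Slc44a2, a choline transporter-like protein, measured 1.97, 1.63 and 1.46 FPKM in vehicle 1, 2 and 3 and 2.90, 2.87 and 3.05 FPKM in ITSN 1, 2 and 3, with a difference of 0.55 log2 units (SE 0.10, adjusted p = 0.0755 in limma). Here vehicle 1 was the highest vehicle library, the reverse of its usual place. The glycine transporter Slc6a9 measured 2.36, 2.37 and 2.34 FPKM in vehicle 1, 2 and 3 and 3.71, 4.42 and 3.57 FPKM in ITSN 1, 2 and 3, and the zinc importer Slc39a1 measured 17.4, 18.9 and 21.1 FPKM in vehicle 1, 2 and 3 and 26.7, 26.002 and 26.3 FPKM in ITSN 1, 2 and 3. The changes of Slc6a9 and Slc39a1 were 0.54 and 0.45 log2 units, with limma adjusted p-values of 0.0755 and 0.0850, and neither set overlapped.

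**Figure D2:**
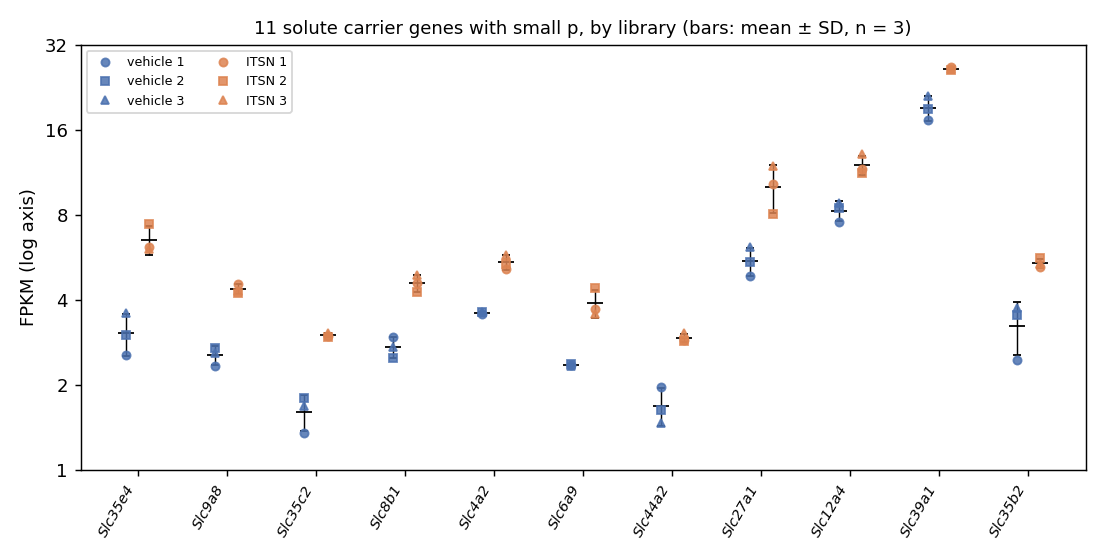
FPKM on a log axis of 11 of the 12 members with the smallest p among those without overlap and with a higher group mean of at least 2 FPKM, 1 point per library, with bars for the mean ± SD of 3 libraries. For each gene the 3 ITSN points (orange) lie above the 3 vehicle points (blue), and no gene passed an adjusted p of 0.05.

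Exons of Slc4a2 overlap those of Fastk, exons of Slc6a9 those of B4galt2 and Ccdc24, and exons of Slc12a4 those of Gm16156, all on the opposite strand. Over all members, 41 overlap exons of a gene on the opposite strand and 10 of a gene on the same strand. No source used here says whether counting took strand into account, so the values of these genes may hold reads of their partners.

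Leaving out vehicle 1 brought members past the threshold. Without it, limma called 673 genes (5.49%), of which 410 (3.35%) were higher in ITSN, and among them were 11 members (7.28%), all higher. These were Slc44a2, Slc9a8, Slc35e4, Slc8b1, Slc35c2, Slc4a2, Slc35b2, Slc25a39, Slc39a1, Slc6a9 and Slc12a4, with limma adjusted p-values from 0.0343 to 0.0494. Their changes were 0.38 to 0.81 log2 units without vehicle 1 and 0.45 to 0.90 with all 6 libraries. Leaving out any other single library called 0 members in limma. In those fits 34 to 58 members (22.5% to 38.4%) were higher at an unadjusted p under 0.05, against 9.41% to 21% of all tested genes. With all libraries, trimmed-mean scaling called 0.922% of tested genes, among them Slc35e4 and Slc35c2 (limma adjusted p = 0.0476 and 0.0497), and quantile normalization or a common sum without mitochondrial genes called 0.759% and 0.645% of tested genes, with Slc35e4 the one member (limma adjusted p = 0.0477 under each).

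The log2 changes of the members were larger in genes richer in GC. Over the 151 members, Spearman's correlation between the log2 change and the GC content of the longest transcript was 0.62, and over 12234 tested genes it was 0.59; both describe genes measured in the same libraries and carry no p. The correlation with GC at the third codon position was 0.51, with the mean log2 level -0.09 and with coding length 0.06. The 50 members lowest in GC (median 44.6%) had a median change of 0.07, and 5 of them had an unadjusted p under 0.05 and were higher in ITSN. The 50 in the middle (median 50.5%) had a median change of 0.20 with 12 such genes, and the 51 highest (median 56.8%) had 0.44 with 33. After a smooth GC trend was taken out of each library, the medians of the same groups were 0.11, 0.09 and 0.08, with 8, 7 and 10 such genes. Because the step takes out the trend of all genes with the same GC values, this levelling follows from it and is no separate result.

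With the GC trend taken out, limma called 0.0734% of tested genes and again 0 members, and 25 members (16.6%) were higher at an unadjusted p under 0.05, where 6.35% of all tested genes were, and 1 (0.662%) was lower, where 7.43% were. Groups did not overlap in 35 members (23.2%) that were higher, against 10.7% of tested genes, and in 4 (2.65%) that were lower, against 11.4%. The change was above 0 for 115 of 151 members (76.2%), against 51.1% of tested genes, and the median was 0.09 against 0.00. The excess of the members' median over that of all genes was thus 0.12 before and 0.09 after this step. Taking out the trend also levels the libraries, so these values are relative to a typical gene of the same GC. The 11 genes described kept their sign at 0.12 (Slc4a2) to 0.50 (Slc44a2). Slc38a2, Slc30a4 and Slc25a3, whose transcripts are low in GC at 44.7%, 41.2% and 43.6%, had 0.36, 0.33 and 0.32 after the step and 0.34, 0.25 and 0.27 before it. Leaving out vehicle 1 as well as the trend called 60 genes (0.49%) and 0 members. In that setting 29 members (19.2%) were higher at an unadjusted p under 0.05, where 10.9% of tested genes were, and 5 (3.31%) were lower, where 12.1% were.

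**Figure D3:**
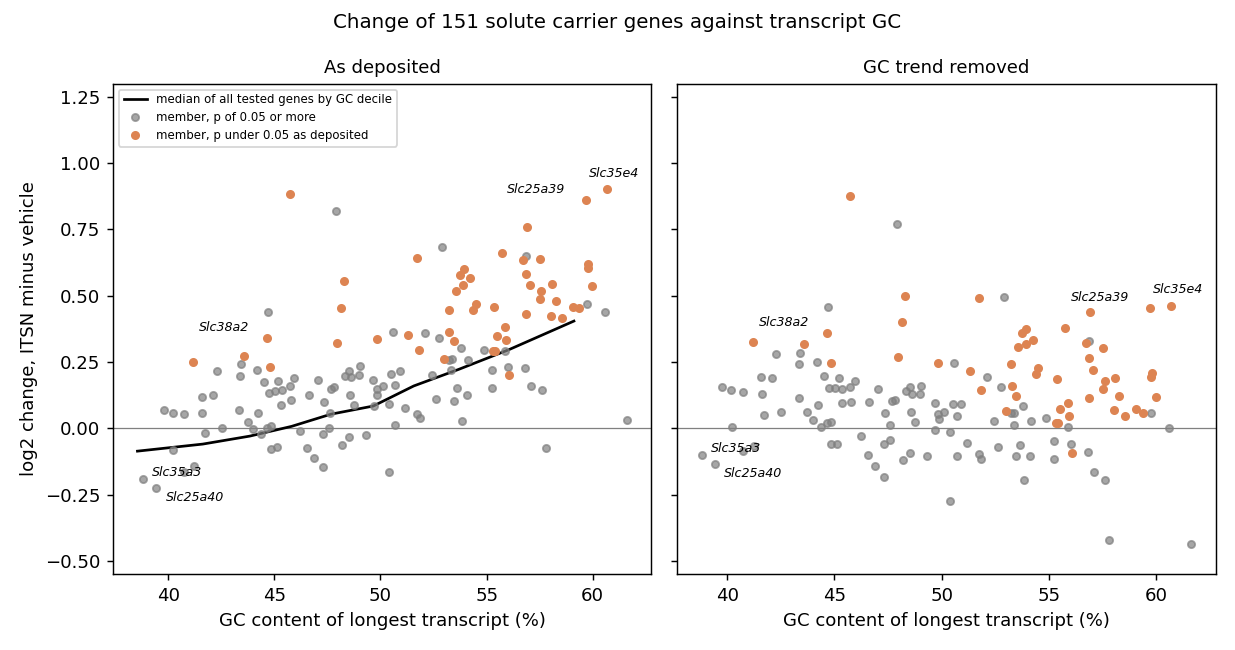
Log2 change (ITSN minus vehicle) of the 151 members against the GC content of the longest transcript, as deposited (left) and after a smooth GC trend was taken out of each library (right). Orange marks members with an unadjusted p under 0.05 as deposited and the black line the median of all tested genes in bins of GC holding equal numbers of genes. On the left members climb with GC along the black line (Spearman's correlation 0.62). On the right they do not (-0.01), which follows from the step, since it takes out the trend with the same GC values.

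The counts by class that follow stand beside shares over all tested genes of 64% above 0 and 16.3% higher in ITSN at an unadjusted p under 0.05, with a median change of 0.09 (51.1%, 6.35% and 0.00 with the GC trend removed). Within the mitochondrial family, 26 of 33 changes were above 0 and 8 members (24.2%) had an unadjusted p under 0.05, all higher in ITSN, with a median change of 0.18 (0.07 with the GC trend removed). That share lay between those of all tested genes and of all members, 16.3% and 33.1%. The family as a sum was 309, 383 and 421 FPKM under vehicle and 418, 412 and 415 FPKM under ITSN. It was the only class whose summed FPKM as deposited overlapped between groups. The class sums were not set against FPKM without the mitochondrially encoded genes, so on that basis other classes may overlap too. The family held both extremes of the Slc25 changes in a pair of close relatives. Slc25a39 and Slc25a40 both serve the import of glutathione into mitochondria, and Slc25a39 measured 4.69, 6.85 and 9.05 FPKM in vehicle 1, 2 and 3 and 13.3, 12.0 and 13.4 FPKM in ITSN 1, 2 and 3. Slc25a40 measured 3.22, 4.26 and 4.38 FPKM in vehicle 1, 2 and 3 and 3.21, 3.35 and 3.08 FPKM in ITSN 1, 2 and 3. The Slc25a39 values did not overlap between groups and gave a difference of 0.86 log2 units (SE 0.20, adjusted p = 0.0985 in limma), while Slc25a40 gave a difference of -0.22 log2 units (SE 0.12, adjusted p = 0.348 in limma) with overlapping groups. The differences were 0.45 and -0.14 with the GC trend removed.

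The 2 genes encode proteins of 359 and 337 residues in very different bases. The first 150 coding bases of each are shown because the change of the members followed GC content and this pair shows the contrast within one function. Capitals mark G or C at the third position of a codon, where many changes leave the amino acid as it is. The sequences are those of the reference transcripts in GENCODE M21 (GRCm38, the mm10 assembly). Slc25a39 lies on chromosome 11 from 102402985 to 102407946 on the minus strand, and Slc25a40 on chromosome 5 from 8422850 to 8454797 on the plus strand.
Slc25a39: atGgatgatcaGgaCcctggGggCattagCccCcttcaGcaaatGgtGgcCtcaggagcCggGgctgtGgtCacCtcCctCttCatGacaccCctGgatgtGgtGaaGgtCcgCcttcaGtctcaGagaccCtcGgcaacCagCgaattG
Slc25a40: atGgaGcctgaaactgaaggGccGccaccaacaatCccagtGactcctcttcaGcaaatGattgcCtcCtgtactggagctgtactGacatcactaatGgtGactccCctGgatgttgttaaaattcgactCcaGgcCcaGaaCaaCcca
In this stretch 34 of 50 codons end in G or C in Slc25a39 and 21 of 50 in Slc25a40. Over the whole coding sequence the shares are 69.1% and 36.5%, and the transcripts hold 59.7% and 39.4% GC. With the GC trend removed the changes of Slc25a39 and Slc25a40 were 0.45 and -0.14.

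The ratio of Slc25a39 to Slc25a40 within a library needs no scaling between libraries, although it still carries any GC trend. It was 1.46, 1.61 and 2.07 under vehicle and 4.15, 3.60 and 4.33 under ITSN, with means of 1.71 ± 0.32 and 4.03 ± 0.39 (SD, n = 3). The groups did not overlap. Such ratios were computed for 9 pairs chosen after their values were seen, of which 4 did not overlap, and they are given as a description with no test. The ratio of Slc38a2 to its relative Slc38a1 was 2.51, 2.56 and 2.59 under vehicle and 3.27, 3.31 and 3.37 under ITSN. Slc38a1, with a transcript GC of 48.5% against 44.7% for Slc38a2, stood at 20.7, 22.5 and 23.4 FPKM under vehicle and 22.0, 21.7 and 21.4 FPKM under ITSN, with overlapping groups. The phosphate importers Slc20a2 and Slc20a1 gave ratios of 0.432, 0.540 and 0.544 under vehicle and 0.571, 0.591 and 0.557 under ITSN.

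The other mitochondrial pairs overlapped. The ratio of the ADP/ATP exchangers Slc25a4 and Slc25a5 was 2.39 in vehicle 1, 1.34 and 1.19 in vehicle 2 and 3 and 1.303 to 1.496 under ITSN. The mitoferrins Slc25a28 and Slc25a37, which bring iron into mitochondria, had a ratio of 0.389, 0.625 and 0.749 under vehicle and 0.583 to 0.616 under ITSN. Both mitoferrins were higher in ITSN on average, at 9.75 ± 1.68 and 14.4 ± 1.9 FPKM for Slc25a28 and 17.2 ± 2.8 and 23.9 ± 3.8 FPKM for Slc25a37 (SD, n = 3, vehicle first). The groups overlapped for Slc25a37, at 20.2 FPKM in vehicle 1 and 19.96 in ITSN 2, and did not for Slc25a28. The changes of Slc25a28 and Slc25a37 were 0.52 and 0.45 log2 units (limma adjusted p = 0.131 and 0.175). With the GC trend removed they were 0.31 and 0.40 (limma adjusted p = 0.272 and 0.415). The aspartate and glutamate exchangers Slc25a13 and Slc25a12 had ratios of 4.37 to 8.01 under vehicle and 4.98 to 7.97 under ITSN. In all 3 pairs vehicle 1 held an extreme value and the ITSN libraries lay at or within the range of the vehicle libraries.

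**Figure D4:**
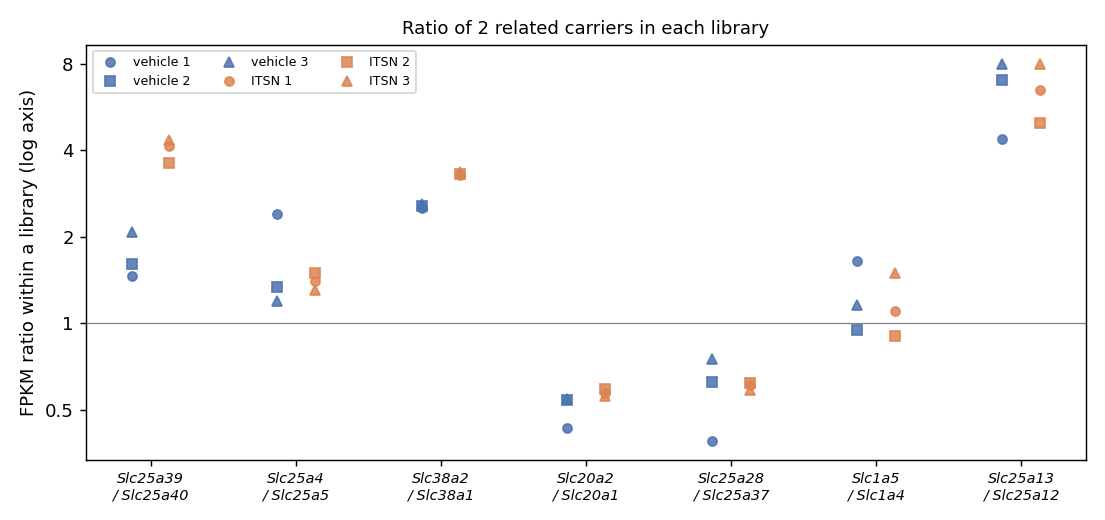
Ratio of the FPKM of 2 related carriers within each library, on a log axis, for 7 of the 9 pairs, with vehicle in blue and ITSN in orange. The ratios of Slc25a39 to Slc25a40, Slc38a2 to Slc38a1 and Slc20a2 to Slc20a1 do not overlap between groups, and the other 4 do.

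Carriers that pass metabolites between mitochondria and cytosol included Slc25a11, which exchanges 2-oxoglutarate for malate and measured 7.56, 11.3 and 13.4 FPKM in vehicle 1, 2 and 3 and 16.2, 15.5 and 16.3 FPKM in ITSN 1, 2 and 3, and the citrate exporter Slc25a1, which measured 4.34, 5.67 and 5.71 FPKM in vehicle 1, 2 and 3 and 8.63, 6.51 and 7.58 FPKM in ITSN 1, 2 and 3. Neither set overlapped, and the changes were 0.57 and 0.46 log2 units (limma adjusted p = 0.161 and 0.142). They were 0.33 and 0.07 with the GC trend removed (limma adjusted p = 0.325 and 0.795). Exons of Slc25a11 overlap those of Rnf167 on the opposite strand. On the other side, Slc25a46, an outer membrane protein of mitochondrial shape control, measured 13.8, 15.995 and 17.1 FPKM under vehicle and 14.2, 14.0 and 13.1 FPKM under ITSN, and Slc25a32, which brings folate into mitochondria, measured 5.22, 8.69 and 9.82 FPKM under vehicle and 6.77, 7.002 and 6.81 FPKM under ITSN. Their changes were -0.17 and -0.14 (limma adjusted p = 0.408 and 0.741), with overlapping groups and transcripts of 40.7% and 41.2% GC.

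In the Slc35 family 17 of 19 changes were above 0 and 6 members (31.6%) had an unadjusted p under 0.05, all higher in ITSN, with a median change of 0.22 (0.11 with the GC trend removed). The summed level was 66.5, 82.3 and 90.0 FPKM under vehicle and 94.1, 102 and 94.1 FPKM under ITSN. Besides Slc35e4, Slc35c2 and Slc35b2, the orphan Slc35e2 measured 1.88, 3.89 and 2.24 FPKM in vehicle 1, 2 and 3 and 4.34, 6.23 and 6.39 FPKM in ITSN 1, 2 and 3, with a difference of 0.88 log2 units (SE 0.23, adjusted p = 0.111 in limma). Its transcript has 45.7% GC, and its change was 0.88 with and without the GC trend. The highest member of the family, the orphan Slc35e1, stood at 7.27, 9.38 and 11.1 FPKM under vehicle and 11.2, 11.1 and 11.02 FPKM under ITSN, with vehicle 3 beside the ITSN libraries. At the other end Slc35a3, which carries UDP-N-acetylglucosamine into the Golgi, measured 9.78, 9.39 and 8.70 FPKM in vehicle 1, 2 and 3 and 7.95, 8.95 and 7.19 FPKM in ITSN 1, 2 and 3. Its groups overlapped, with a difference of -0.19 log2 units (SE 0.11, adjusted p = 0.356 in limma).

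Slc35e4 and Slc35a3 also differ in base composition, and the same stretch is shown for them, with capitals again at codon ends that are G or C. The pair was picked after its values were seen and holds the highest and lowest changes of the family, 0.90 and -0.19. Slc35e4 has no settled cargo, so the 2 are not a contrast within one function. Slc35e2, with 45.7% GC and a change of 0.88, departs from the contrast. Slc35e4 lies on chromosome 11 from 3907021 to 3914664 and Slc35a3 on chromosome 3 from 116669470 to 116712831, both on the minus strand of GRCm38.
Slc35e4: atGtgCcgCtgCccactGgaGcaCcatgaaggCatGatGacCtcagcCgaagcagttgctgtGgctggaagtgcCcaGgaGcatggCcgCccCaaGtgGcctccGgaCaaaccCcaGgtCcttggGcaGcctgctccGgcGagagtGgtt
Slc35a3: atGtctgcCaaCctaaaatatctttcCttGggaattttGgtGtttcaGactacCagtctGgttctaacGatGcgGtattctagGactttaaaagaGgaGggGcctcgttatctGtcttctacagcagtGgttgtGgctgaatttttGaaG
Here 31 of 50 codons end in G or C in Slc35e4 and 22 of 50 in Slc35a3, and over the whole coding sequences of 351 and 326 residues the shares are 70.9% and 37.1%. The ratio of Slc35e4 to Slc35a3 was 0.261, 0.319 and 0.412 under vehicle and 0.774, 0.827 and 0.843 under ITSN. With the GC trend removed the changes were 0.46 and -0.10. Exons of Slc35a3 overlap Gm43191 on the same strand.

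Among carriers of inorganic ions, 17 of 19 changes were above 0 and 9 members (47.4%) had an unadjusted p under 0.05, all higher in ITSN. The class had the highest median change of all classes as deposited, at 0.36, and 0.14 with the GC trend removed. Its median transcript GC was 53.3%, against 50.5% for all members. Exchangers of sodium for protons included Slc9a8 and Slc9a5, of which Slc9a5 measured 3.73, 3.89 and 4.64 FPKM in vehicle 1, 2 and 3 and 7.42, 5.14 and 8.98 FPKM in ITSN 1, 2 and 3. All 5 Slc12 members and all 4 Slc4 members had changes above 0, although with trimmed-mean scaling 4 of 5 and 3 of 4 did. The sulfate carrier Slc26a2 was flat, at 4.03, 3.95 and 4.05 FPKM under vehicle and 4.04, 4.02 and 3.97 FPKM under ITSN, with a change of 0.00 (SE 0.08). Slc4a11, the lowest member of the list, stood at 0.816, 0.714 and 0.639 FPKM under vehicle and 1.33, 1.58 and 1.14 FPKM under ITSN. It reached the level of 1 FPKM only through ITSN, so its direction, also in the count of Slc4 members, was favoured by the rule. The phosphate importers Slc20a1 and Slc20a2 had changes of 0.20 and 0.36 (limma adjusted p = 0.271 and 0.115), or 0.14 and 0.16 with the GC trend removed, and neither overlapped between groups.

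Carriers of amino acids and neurotransmitters had 17 of 18 changes above 0, with 7 (38.9%) at an unadjusted p under 0.05, all higher in ITSN, and a median change of 0.24. With the GC trend removed the median was 0.15, the highest of the carrier classes, but only 12 of 18 changes were above 0. In the same setting 19 of 19 carriers of inorganic ions were, with a median of 0.14. Slc38a2 gave a difference of 0.34 log2 units (SE 0.09, adjusted p = 0.115 in limma). Slc1a5, a glutamine exchanger of many dividing cells, measured 3.54, 5.48 and 6.84 FPKM in vehicle 1, 2 and 3 and 8.43, 8.07 and 9.14 FPKM in ITSN 1, 2 and 3. Slc7a1, which imports arginine and lysine, measured 7.40, 8.78 and 8.95 FPKM in vehicle 1, 2 and 3 and 11.3, 11.3 and 10.3 FPKM in ITSN 1, 2 and 3. Slc7a6, a partner of the heavy chain Slc3a2 in arginine exchange, measured 4.68, 5.55 and 5.99 FPKM in vehicle 1, 2 and 3 and 7.27, 6.49 and 7.20 FPKM in ITSN 1, 2 and 3. None of these sets overlapped, and the changes of Slc1a5, Slc7a1 and Slc7a6 were 0.64, 0.35 and 0.32 (limma adjusted p = 0.147, 0.128 and 0.173), or 0.32, 0.22 and 0.27 with the GC trend removed. The taurine importer Slc6a6 was nearly level, at 19.2, 19.6 and 19.4 FPKM under vehicle and 20.7, 21.04 and 19.9 FPKM under ITSN, and its change of 0.08 turned to -0.03 with trimmed-mean scaling and to -0.06 with the GC trend removed.

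The zinc importers and the Slc30 carriers can be set side by side. All 10 Slc39 importers had changes above 0, with a median of 0.45 and 4 at an unadjusted p under 0.05, while 3 of 6 Slc30 carriers had changes above 0, with a median of 0.03 and 1 such gene. With trimmed-mean scaling 8 of 10 importers stayed above 0 with a median of 0.36, and the Slc30 median turned to -0.07. The families also differed in base composition, with a median transcript GC of 53.6% for Slc39 and 43.9% for Slc30, and with the GC trend removed the medians were 0.15 and 0.06. The difference between the families was not tested.

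Besides Slc39a1 and Slc39a10, the importer Slc39a7, which releases zinc from the endoplasmic reticulum, measured 9.37, 9.54 and 9.30 FPKM in vehicle 1, 2 and 3 and 17.0, 10.9 and 18.9 FPKM in ITSN 1, 2 and 3, with ITSN 2 close to the vehicle libraries. Slc39a4, which serves zinc uptake in the intestine, measured 3.91, 6.27 and 8.02 FPKM in vehicle 1, 2 and 3 and 10.4, 6.90 and 12.7 FPKM in ITSN 1, 2 and 3, with ITSN 2 inside the vehicle range. Slc39a14, which also carries iron, stood at 17.6, 11.9 and 9.49 FPKM under vehicle and 12.8, 12.6 and 13.9 FPKM under ITSN, and vehicle 1 was the highest of all libraries. The zinc exporter Slc30a1 stood at 3.58, 3.57 and 3.20 FPKM under vehicle and 3.43, 3.27 and 3.56 FPKM under ITSN, with a change of -0.01 (SE 0.09). The changes of Slc39a7, Slc39a4 and Slc39a14 were 0.64, 0.65 and 0.05 (limma adjusted p = 0.134, 0.252 and 0.909), and the last was -0.05 with trimmed-mean scaling. They were 0.30, 0.33 and -0.10 once the GC trend was removed. Exons of Slc39a7 overlap Gm20427 on the same strand.

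Genes of zinc and iron handling gave a setting for these carriers, with 5 of 9 tested genes above 0 and a median of 0.06. Of the 9, 3 were higher and 0 lower at an unadjusted p under 0.05. Among all tested genes 64% were above 0, 16.3% higher and 4.57% lower by the same measures, with a median of 0.09. Mt2, a metallothionein that binds zinc, measured 40.3, 45.1 and 44.8 FPKM under vehicle and 87.3, 51.3 and 119.96 FPKM under ITSN. ITSN 2 was the lowest ITSN library for Mt2, as it was for Slc39a7 and Slc39a4. The same held for genes with other cargo, among them Slc27a1, Slc9a5 and Spns2, so this order was not particular to zinc genes. Ftl1, the light chain of the iron store ferritin, measured 75.6, 91.1 and 94.6 FPKM under vehicle and 134, 129 and 148 FPKM under ITSN, with a change of 0.65 (limma adjusted p = 0.0755). The ferritin heavy chain Fth1 measured 649 to 946 FPKM under vehicle and 611 to 825 FPKM under ITSN and had a change of -0.13 with overlapping groups.

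In the 27 members of other families 22 changes were above 0 and 8 members (29.6%) had an unadjusted p under 0.05, all higher in ITSN, with a median of 0.21 (0.07 with the GC trend removed). Vitamin carriers were among them. Slc19a1, the reduced folate carrier, measured 1.63, 2.09 and 2.06 FPKM in vehicle 1, 2 and 3 and 2.84, 2.92 and 3.38 FPKM in ITSN 1, 2 and 3, and the riboflavin carrier Slc52a2 measured 0.865, 1.24 and 1.57 FPKM in vehicle 1, 2 and 3 and 2.10, 2.18 and 2.62 FPKM in ITSN 1, 2 and 3. The changes were 0.47 and 0.58 (limma adjusted p = 0.0985 and 0.104), or 0.23 and 0.36 with the GC trend removed, and neither set overlapped. Slc29a1, which lets nucleosides cross the plasma membrane, was the most abundant of the class at 17.1, 16.7 and 14.9 FPKM in vehicle 1, 2 and 3 and 19.5, 20.7 and 19.9 FPKM in ITSN 1, 2 and 3, also without overlap. Its change was 0.29 as deposited and 0.02 with the GC trend removed. The choline carrier Slc44a1 stood at 13.2, 15.1 and 14.7 FPKM under vehicle and 14.1, 16.05 and 12.5 FPKM under ITSN, with overlapping groups, while Slc44a2 was named above. Slc15a3, a lysosomal carrier of peptides and histidine, stood at 18.0, 10.02 and 6.22 FPKM under vehicle and 10.01, 8.62 and 11.3 FPKM under ITSN, with vehicle 1 far above the rest.

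The 8 carriers of sugars and monocarboxylates, which exclude those left out by name, had 7 changes above 0, 4 at an unadjusted p under 0.05 and a median of 0.28 (0.09 with the GC trend removed, where 0 of 8 had such a p). Slc50a1, a sugar carrier of Golgi and plasma membrane, measured 4.68, 5.46 and 6.26 FPKM in vehicle 1, 2 and 3 and 6.44, 7.07 and 7.83 FPKM in ITSN 1, 2 and 3. Slc45a4, of a family of proton-linked sugar carriers, measured 1.38, 1.40 and 1.41 FPKM in vehicle 1, 2 and 3 and 1.81, 1.88 and 1.92 FPKM in ITSN 1, 2 and 3. Neither set overlapped, and the changes were 0.33 and 0.26 (limma adjusted p = 0.204 and 0.153), or 0.12 and 0.07 with the GC trend removed.

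**Figure D5:**
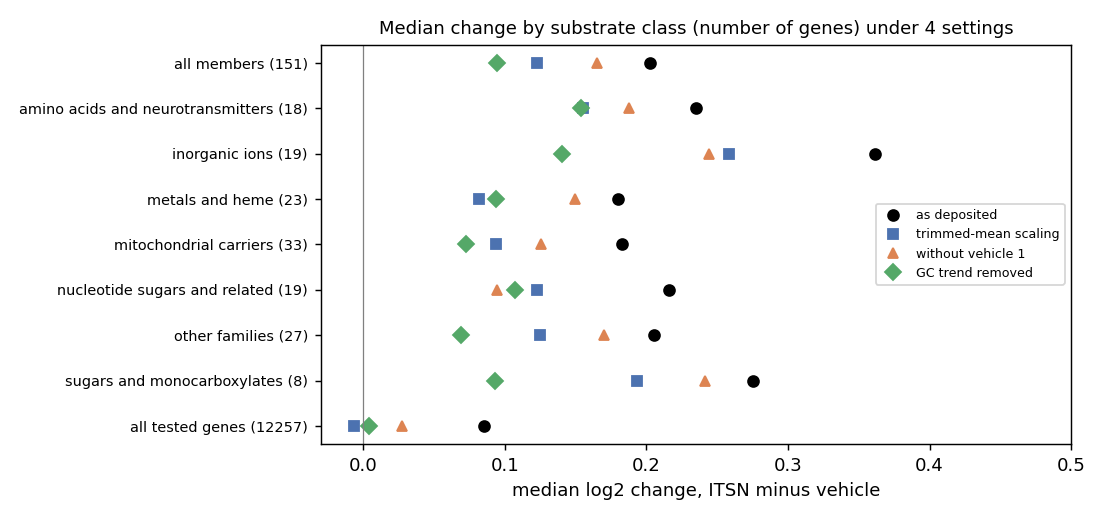
Median log2 change (ITSN minus vehicle) of each substrate class and of all tested genes, with 1 symbol per setting and the number of genes in brackets. Every carrier class has a median above 0 in these 4 settings, between 0.07 and 0.36, while the median of all tested genes lies between -0.01 and 0.09.

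The 4 Slc rows that encode no carrier behaved differently among themselves. Slc4a1ap, which encodes a nuclear protein known as kanadaptin, was the only one of the 151 members whose ITSN values all lay below its vehicle values, at 7.06, 7.51 and 7.12 FPKM in vehicle 1, 2 and 3 and 6.09, 6.35 and 6.59 FPKM in ITSN 1, 2 and 3. The means were 7.23 ± 0.24 and 6.34 ± 0.25 FPKM (SD, n = 3), with a difference of -0.16 log2 units (SE 0.08, adjusted p = 0.326 in limma). Its exons overlap those of Supt7l on the opposite strand. The scaffold protein Slc9a3r1, which anchors carriers at the apical membrane of epithelia, measured 7.40, 9.59 and 10.9 FPKM in vehicle 1, 2 and 3 and 12.0, 13.5 and 12.4 FPKM in ITSN 1, 2 and 3, without overlap and with a difference of 0.42 log2 units (SE 0.14, adjusted p = 0.169 in limma). The difference of Slc9a3r1 was 0.05 with the GC trend removed (limma adjusted p = 0.888), and with vehicle 1 also left out it was -0.01. The median of the 4 was 0.07, and it was -0.02 with trimmed-mean scaling and -0.11 with the GC trend removed.

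Carriers without an Slc symbol had a median change close to that of the members (0.22 and 0.20), in a list also chosen with results known. Of 34 such genes 25 were tested, 22 had changes above 0, and the median change was 0.22 (0.11 with the GC trend removed). At an unadjusted p under 0.05, 6 were higher and 0 lower. The shares higher by that measure were 16.3% of all tested genes and 33.1% of members, and the shares lower 4.57% and 0%. They included Spns2, which exports sphingosine-1-phosphate, at 7.58, 9.58 and 9.95 FPKM under vehicle and 15.4, 12.5 and 17.6 FPKM under ITSN. Of the sodium pump, 3 of 5 tested subunits had changes above 0 with a median of 0.09, against 64% and 0.09 for all tested genes, and the median was -0.03 with trimmed-mean scaling, against -0.01. Proteins that assist or regulate carriers had 6 of 11 changes above 0 and a median of 0.06, with 1 higher and 1 lower at an unadjusted p under 0.05. The lower one was the kinase Wnk1, which controls chloride cotransporters and measured 33.6, 35.99 and 35.2 FPKM under vehicle and 30.6, 28.6 and 31.3 FPKM under ITSN. None of these genes was called in limma.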

How the data were processed

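RNA sequencing covered 3 vehicle and 3 ITSN libraries, and each library was assigned by its label. The authors deposited FPKM values for each gene in 1 table, so named per the file headers, with gene IDs, symbols and positions. The build is mm10, per the submitters' processing notes, and no source used here names the aligner, the counter or the strand setting. The table held 13823 genes and 1 emptied line, and the higher group mean of every gene was at least 0.5 FPKM. No counts were used, so the depth of the libraries is unknown and no counting intervals are given. The labels do not say whether the tissue samples of a group were pooled, so p-values measure the spread between these 6 libraries.

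Values were taken as log2(FPKM + 1), which understates the change of low genes. The 12257 genes that reached 1 FPKM in 3 or more libraries were compared by two-sided moderated tests in limma 3.58.1 (R 4.3.3), with eBayes given a mean-variance trend, and p-values were adjusted over all of them by Benjamini and Hochberg, with a threshold of 0.05. The members and lists were chosen with earlier results of these data known. Named members were those called, up to 12 per direction with the smallest p among those without overlap and with a higher group mean of at least 2 FPKM, the 10 highest in level, the 2 highest per class, those at the edge of the 1 FPKM level and the 5 with the widest range. A further 25 were named after their values were seen, of which 19 had a change above 0. Genes outside the list were also named after their values were seen. GC content and coding sequences came from GENCODE M21 and covered 99.7% of genes and all 151 members, of which 135 had the same coordinates there. The GC trend was a loess curve (span 0.5) of each library's deviation from the mean library. The alternatives were 17 other settings, listed in the closing section. The fit was tested on simulated data. Tables and plots were made with pandas 2.3.3, numpy 2.4.6, scipy 1.17.1 and matplotlib 3.10.9 in Python 3.11.15. Results for a few named genes are not reported here.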

Additional observations from a re-analysis of the deposited data

How the results depend on the processing

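With 3 libraries a group and FPKM without counts, precision rests on the spread between libraries. Testing every listed gene, a pseudocount of 0.1 and a fit with no mean-variance trend moved no count of genes or members by over 1.5 times. With a filter of 5 FPKM, 68 members were tested, 19 genes and 0 members were called, 24 members were higher at an unadjusted p under 0.05 and 28 were higher without overlap. Scaling mattered more. The genes called were 113 with trimmed-mean scaling, 93 with quantile normalization and 79 with a common sum without mitochondrial genes, and the members called were 2, 1 and 1. Members lower at an unadjusted p under 0.05 were 3, 4 and 3, against 10.8%, 10.3% and 8.97% of all tested genes. Those lower without overlap were 6, 9 and 5, against 15.2%, 14.9% and 13.2%. Quantile normalization also gave 37 members (24.5%) higher without overlap, against 14.5% of all tested genes, and a median change of 0.087. With the GC trend removed, 9 genes and 0 members were called, and the median was 0.095. At an unadjusted p under 0.05, 25 members were higher and 1 lower, against 6.35% and 7.43% of all tested genes. Without overlap, 35 were higher and 4 lower, against 10.7% and 11.4%.

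The deviations of same-numbered libraries had correlations of -0.0038, -0.14 and 0.24, and vehicle 1, 2 and 3 correlated best with ITSN 2, 3 and 3. With 3 libraries a group, these values cannot decide whether samples were paired, and the labels name no pairing. A replicate block gave 2 called genes and 0 called members. With the block and the GC trend removed, limma called 0 genes, 17 members were higher and 1 lower at an unadjusted p under 0.05, 35 were higher and 4 lower without overlap, and the median was 0.095.

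Leaving out each library in turn, the genes called ranged from 1 (without ITSN 3) to 673 (without vehicle 1) and the members called from 0 to 11. Members higher at an unadjusted p under 0.05 ranged from 34 to 58 (22.5% to 38.4%), against 9.41% to 21% of all tested genes. Those lower ranged from 0 to 5 (0% to 3.31%), against 2.13% to 11.8%. The members without overlap ranged from 61 to 78 higher and from 1 to 10 lower, and the median change from 0.16 to 0.26. With fewer libraries groups part more easily in every gene. Over all tested genes, the share without overlap ranged from 23.3% to 33.5% higher and from 8.14% to 20.6% lower, against 21.8% and 7.37% with all 6 libraries, and for members from 40.4% to 51.7% and from 0.662% to 6.62%. The calls were 2 genes without vehicle 2, 10 without vehicle 3, 4 without ITSN 1 and 2 without ITSN 2. With vehicle 1 left out and the GC trend removed, 60 genes and 0 members were called, and the median was 0.094. At an unadjusted p under 0.05, 29 members were higher and 5 lower, against 10.9% and 12.1% of all tested genes. Without overlap, 55 (36.4%) were higher and 14 (9.27%) lower, against 21.5% and 21.5%.

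Some named members turned sign, among them Slc9a3r1, Slc35a4 and Slc35e1, which had changes of 0.42, 0.29 and 0.26 as deposited, and the cause was not tested. With trimmed-mean scaling Slc25a4 had -0.071, Slc12a2 -0.049, Slc6a6 -0.032, Slc26a2 -0.092 and Slc39a14 -0.054. With quantile normalization Slc25a4 had -0.023, Slc26a2 -0.13 and Slc39a14 -0.021. With the common sum Slc25a4 had -0.045, Slc12a2 -0.024, Slc6a6 -0.0066, Slc26a2 -0.070 and Slc39a14 -0.029. With the GC trend removed, with or without the replicate block, Slc25a24 had 0.060, Slc25a4 -0.11, Slc44a1 0.052, Slc8a1 0.0037, Slc6a6 -0.056 and Slc39a14 -0.098. With vehicle 1 left out as well as the trend, Slc25a4 had -0.12, Slc25a5 -0.18, Slc12a2 -0.063, Slc9a3r1 -0.014, Slc35e1 -0.0084, Slc44a1 0.045, Slc35a4 -0.24, Slc15a3 0.024 and Slc30a1 0.053. Leaving out each library in turn, the changes ranged from -0.036 to 0.11 (Slc25a4), -0.18 to 0.45 (Slc25a5), -0.15 to 0.22 (Slc12a2), -0.035 to 0.77 (Slc35a4), -0.41 to 0.29 (Slc15a3), -0.052 to 0.014 (Slc30a1), -0.14 to 0.096 (Slc25a24), -0.10 to 0.063 (Slc44a1), -0.52 to 0.21 (Slc8a1), -0.0089 to 0.0064 (Slc26a2), -0.080 to 0.0053 (Slc38a1), -0.38 to 0.018 (Slc25a32) and -0.13 to 0.28 (Slc39a14).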
